A study of Homo sapiens with 4 samples.

Results

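The HOXB cluster is a run of 10 protein-coding homeobox genes on the minus strand of human chromosome 17, HOXB1 to HOXB9 and HOXB13. They were taken by gene symbol, as 10 of the 58274 gene identifiers in the expression table, and the family was picked because earlier results from these same libraries showed its levels moving. Its rises and falls are therefore a description of these libraries. The libraries were made from the BC1 line, a human induced pluripotent stem cell line, during its differentiation toward blood. BC1 cells were undifferentiated, APLNR+ cells (mesoderm cells carrying the apelin receptor) were collected on day 2, CD31+CD34+ cells (hemogenic endothelial progenitors, HEPs) on day 5 and CD43+ cells (hematopoietic progenitor cells, HPCs) on day 8. Differentiating cells received activin A and BMP4 first, and VEGF with bFGF afterward. All 4 populations came from the same line, and each had 1 library, so no difference below has a replicate check and no p-value is given.

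HOX genes encode transcription factors that give cells a position along the body axis. Their order on the chromosome follows the order in which they are switched on and the level of the axis at which they act, with HOXB1 at the anterior end and HOXB13 at the posterior end. HOX proteins bind DNA through the homeodomain, mostly together with PBX and MEIS proteins. In blood, HOXB4 is best known for expanding hematopoietic stem and progenitor cells when overexpressed. The comparison asked which genes of the cluster were present at each step from pluripotent cell to hematopoietic progenitor.

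Values were FPKM, fragments per kilobase of transcript per 1000000 mapped fragments, which allows levels of different genes to be compared. The depth read from the values was 19700000 mapped fragments in BC1, 21400000 in APLNR+ cells, 23600000 in CD31+CD34+ cells and 21500000 in CD43+ cells. Between 13554 and 14335 genes reached 1 FPKM in a library. Of the genes that encode the markers naming the populations, APLNR was highest in APLNR+ cells at 1073 FPKM, CD34 was highest in CD31+CD34+ cells at 102 FPKM, and SPN, which encodes CD43, was highest in CD43+ cells at 92.4 FPKM. PECAM1, which encodes CD31, was 93.1 FPKM in CD31+CD34+ cells and 126 FPKM in CD43+ cells. Fold changes carry a 95% interval computed from approximate fragment numbers, which reflects the counting of fragments and leaves out how cultures vary. A fold against a gene listed at 0 was computed from a floor of 3 fragments and is a lower bound. In bulk libraries such as these, fewer cells of a type and less RNA per cell cannot be told apart.

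The members share the homeobox, and HOXB6 and HOXB7, which are neighbours in the cluster, are the pair most alike in it. Their stretch encoding the recognition helix, the part of the homeodomain that lies in the major groove of DNA, is shown because the levels of the pair differed widely. The 48 coding bases run 5′ to 3′ from GRCh38, minus strand, with the 5 bases that differ between them in capitals.
HOXB6, chr17:48596482-48596529: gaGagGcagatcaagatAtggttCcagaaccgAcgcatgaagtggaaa
HOXB7, chr17:48607917-48607964: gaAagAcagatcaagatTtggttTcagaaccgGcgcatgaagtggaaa
Over the whole homeobox of 180 bases, the 45 pairs of members had a median identity of 64.4%, from 51.1% between HOXB8 and HOXB13 to 88.9% between HOXB6 and HOXB7. Stretches of 50 bases that also occur in the transcripts of another gene, inside or outside the cluster, made up 25.3% of those of HOXB6 (shared with HOXB3, HOXB7 and HOXB-AS3), 12.4% of HOXB4 and 8.60% of HOXB3. They were at most 1.71% for each other member. Counting genes outside the cluster alone, the share was 1.49% for HOXB7, 0.170% for HOXB3 and 0.0585% for HOXB13, and 0 for the other 7.

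The cluster was close to silent in BC1 cells, appeared in APLNR+ cells, reached its highest summed level in CD31+CD34+ cells and was lower in CD43+ cells. The summed level was 0.222 FPKM in BC1 cells, 72.1 FPKM in APLNR+ cells, 311 FPKM in CD31+CD34+ cells and 142 FPKM in CD43+ cells. The 10 genes together had about 6 fragments in BC1, and 6 of the 10 were listed at 0 there. The number of members with at least 1 FPKM was 0, 6, 8 and 8 in the order of differentiation. HOXB1 and HOXB13 stayed under 1 FPKM in every library, and the other 8 passed the filter of at least 1 FPKM in at least 1 library.

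**Figure D1:**
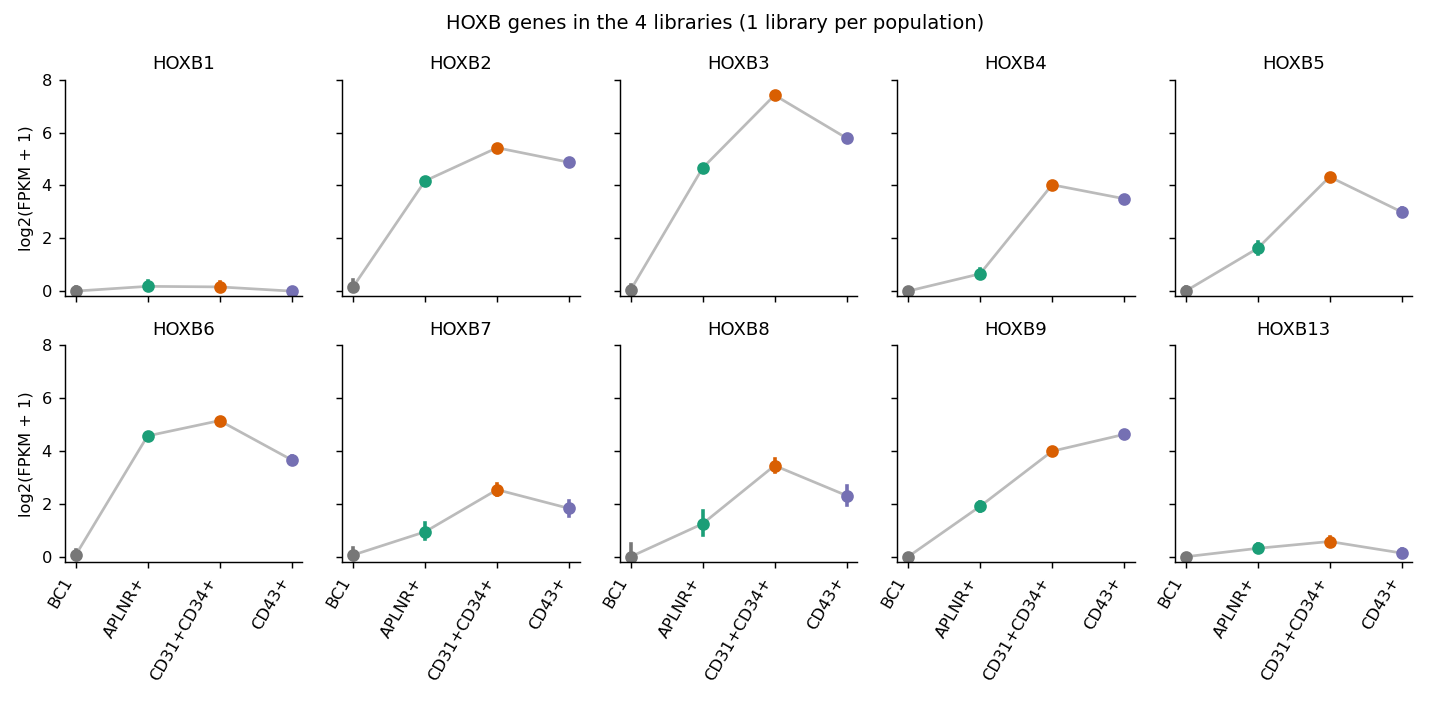
Each panel plots 1 HOXB gene as log2(FPKM + 1) on the vertical axis against the 4 libraries in order of differentiation, with vertical bars for the 95% counting interval. HOXB2 to HOXB8 peak in CD31+CD34+ cells, HOXB9 is highest in CD43+ cells, and HOXB1 and HOXB13 stay near the axis.

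A gene was said to rise or fall when log2(FPKM + 1) changed by at least 1, a scale that understates the change of genes with low values. From BC1 to APLNR+, 6 members rose (HOXB2, HOXB3, HOXB5, HOXB6, HOXB8 and HOXB9) and 0 fell, while 9.15% of the 17137 genes tested rose. From APLNR+ to CD31+CD34+, 7 members rose, all of those that passed the filter except HOXB6, and 0 fell, against 13% of all genes tested that rose. From CD31+CD34+ to CD43+, 4 members fell (HOXB3, HOXB5, HOXB6 and HOXB8) and 0 rose, against 13.5% of all genes tested that fell. The members were picked with these contrasts known, so nothing is read from their counts against these shares. The median change over the 10 members was 1.43, 1.84 and -0.63 on the log2(FPKM + 1) scale at the 3 steps, beside 0.00, 0.01 and -0.08 over all genes tested. HOXB3, HOXB5 and HOXB8 were the 3 members that rose at both of the first steps and fell at the last, a course taken by 0.531% of all genes tested.

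The first step has the weakest footing, because the BC1 values rest on so few fragments. For the members with a fragment in BC1, the ratio of APLNR+ to BC1 was 149 for HOXB2 (95% interval 50.0 to 739), 629 for HOXB6 (121 to 18377) and 20.3 for HOXB7 (3.27 to 838). Against the floor, APLNR+ cells had at least 41.9-fold more HOXB9, at least 24.2-fold more HOXB5 and at least 13.2-fold more HOXB4. The bounds for HOXB13, HOXB8 and HOXB1 were lower, at least 5.20-fold, 4.36-fold and 1.53-fold.

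The anterior members are HOXB1, HOXB2 and HOXB3, which act mostly in the hindbrain of the embryo. HOXB3 (chr17:48548870-48604912) had the highest level of the family in every differentiated library, with 0.0257 FPKM in BC1 cells, 24.2 in APLNR+ cells, 170 in CD31+CD34+ cells and 54.3 in CD43+ cells. The BC1 value stood for about 1 fragment and the CD31+CD34+ value for about 5630. HOXB3 was 7.01-fold higher in CD31+CD34+ than in APLNR+ cells (95% interval 6.49 to 7.57) and then 3.13-fold lower in CD43+ cells (2.96 to 3.31). Its ratio of APLNR+ to BC1 was 942, but with an interval of 134 to 127294 that shows how little a single fragment fixes. HOXB3 made up 33.6% of the summed HOXB level in APLNR+, 54.6% in CD31+CD34+ cells and 38.2% in CD43+ cells.

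HOXB2 (chr17:48540894-48544989), a hindbrain segment gene, had 0.115 FPKM in BC1 cells, 17.02 in APLNR+ cells, 42.0 in CD31+CD34+ cells and 28.4 in CD43+ cells. It was the second most abundant member in the last 2 libraries. Its level moved less than that of HOXB3 at both later steps: it was 2.47-fold higher in CD31+CD34+ than in APLNR+ cells (2.22 to 2.75) and 1.48-fold lower in CD43+ cells (1.35 to 1.62). HOXB2 and HOXB3 lie next to each other and, in APLNR+ cells, differed by 1.42-fold, while in CD31+CD34+ cells HOXB3 was 4.05-fold higher.

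HOXB1 (chr17:48528526-48530997), which specifies a single hindbrain segment, was listed at 0 in BC1 cells and CD43+ and had 0.133 FPKM in APLNR+ cells and 0.116 in CD31+CD34+ cells. The latter 2 values stood for about 5 fragments each and their ratio was 1.14 with an interval of 0.259 to 5.09, so no difference was detectable at this depth. Its nearest neighbour HOXB2, 12368 bases away between the 3′ ends of the gene models, was among the highest members in the same libraries. The promoter of HOXB1 is shown because it is known for a site at which HOX and PBX proteins bind together. RefSeq gives it on GRCh38.p14 as chr17:48530962-48531261, minus strand, from 250 bases before the start site to 50 after it, and the capitals mark the match to TGATNNAT, the letters searched on both strands for a HOX-PBX site.
HOXB1 promoter: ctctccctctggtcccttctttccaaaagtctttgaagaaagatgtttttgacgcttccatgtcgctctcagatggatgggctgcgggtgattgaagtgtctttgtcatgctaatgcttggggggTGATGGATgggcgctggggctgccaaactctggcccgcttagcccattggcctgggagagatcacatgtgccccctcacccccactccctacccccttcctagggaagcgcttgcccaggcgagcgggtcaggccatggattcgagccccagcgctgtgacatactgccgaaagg
The match lay 117 bases before the start site, on the gene's own strand. Of 35116 promoters of the same length, 2598 (7.40%) held such a match, so the letters alone are common, and a match is not a measured binding site.

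The central members, HOXB4 to HOXB8, act along the neck and trunk. HOXB4 (chr17:48575513-48580111) was the member with the smallest part of its CD31+CD34+ level in APLNR+ cells, 3.76%. It was listed at 0 in BC1 cells and had 0.573 FPKM in APLNR+ cells, 15.3 in CD31+CD34+ cells and 10.3 in CD43+ cells. The change from APLNR+ to CD31+CD34+ was 26.6-fold (19.6 to 37.0), and this interval lies above that of each other member with an interval at the same step. From CD31+CD34+ to CD43+ HOXB4 was 1.48-fold lower (1.35 to 1.62), so 67.4% of its level was still found in the CD43+ library. HOXB4 lies within the span of the HOXB3 gene model, and HOXB3 was 42.3-fold above it in APLNR+, 11.1-fold in CD31+CD34+ cells and 5.28-fold in CD43+ cells.

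HOXB5 (chr17:48591257-48593961), whose product is also known from vascular progenitors, was listed at 0 in BC1 cells and had 2.07 FPKM in APLNR+ cells, 19.0 in CD31+CD34+ cells and 6.98 in CD43+ cells. It was 9.20-fold higher in CD31+CD34+ than in APLNR+ cells (7.29 to 11.7) and 2.73-fold lower in CD43+ cells (2.37 to 3.15). Its course followed that of HOXB3 with a lower level throughout.

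HOXB6 (chr17:48595751-48604992) was the early member of the central class. It had 0.0362 FPKM in BC1 cells and already 22.8 in APLNR+ cells, followed by 34.6 in CD31+CD34+ cells and 11.7 in CD43+ cells. The APLNR+ level was 66.0% of the CD31+CD34+ level, compared with 3.76% for HOXB4 and 10.9% for HOXB5. HOXB6 was only 1.52-fold higher in CD31+CD34+ than in APLNR+ cells (1.38 to 1.66) and 2.95-fold lower in CD43+ than in CD31+CD34+ cells (2.63 to 3.32). It was also lower in CD43+ than in APLNR+ cells, by 1.95-fold (1.72 to 2.21), whereas HOXB2, HOXB3, HOXB4, HOXB5, HOXB7, HOXB8 and HOXB9 were from 1.67-fold to 18.0-fold higher in CD43+ than in APLNR+ cells. The 2 members under 1 FPKM also had lower values in CD43+ than in APLNR+ cells, HOXB13 by 2.43-fold with an interval of 0.955 to 6.94 that includes no change, and HOXB1 by at least 1.65-fold against the floor.

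HOXB7 (chr17:48607227-48633572) had 0.0457 FPKM in BC1 cells, 0.925 in APLNR+ cells, 4.81 in CD31+CD34+ cells and 2.55 in CD43+ cells. It was the lowest of the 8 members that passed the filter in the last 2 libraries. HOXB7 shares 88.9% of its homeobox bases with HOXB6, its neighbour in the cluster, yet HOXB6 was 24.7-fold higher in APLNR+, 7.19-fold higher in CD31+CD34+ and 4.58-fold higher in CD43+. HOXB8 (chr17:48611377-48614939), known from myeloid cells, was listed at 0 in BC1 cells and had 1.37 FPKM in APLNR+ cells, 9.94 in CD31+CD34+ cells and 3.98 in CD43+ cells. From APLNR+ to CD31+CD34+ the change was 5.20-fold for HOXB7 (3.29 to 8.60) and 7.24-fold for HOXB8 (4.15 to 13.6), so the intervals of this pair overlap. The intervals are wide because the APLNR+ values rest on about 22 and 14 fragments. For HOXB8 the fragment number, and with it the width, depends on the length used. That was 743 bases, while its coding transcripts run from 502 to 1823 bases.

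The posterior members are HOXB9 and HOXB13, which act in the trunk and at the tail end. HOXB9 (chr17:48621159-48626356) was the exception to the course of the cluster. It was listed at 0 in BC1 cells and had 2.75 FPKM in APLNR+ cells, 14.9 in CD31+CD34+ cells and 23.8 in CD43+ cells. After a 5.43-fold higher level in CD31+CD34+ than in APLNR+ cells (4.52 to 6.56), it was 1.59-fold higher again in CD43+ cells (1.45 to 1.74), a change below the threshold used for a rise. HOXB9 was the single member highest in CD43+ cells, 8 members were highest in CD31+CD34+ cells, and HOXB1 had its highest value in APLNR+ cells.

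HOXB13 (chr17:48724763-48729178), a gene of the prostate and hindgut, was listed at 0 in BC1 cells and had 0.247 FPKM in APLNR+ cells, 0.492 in CD31+CD34+ cells and 0.102 in CD43+ cells. These stood for about 17, 37 and 7 fragments. It was 1.99-fold higher in CD31+CD34+ than in APLNR+ cells (1.09 to 3.77) and 4.83-fold lower in CD43+ cells (2.12 to 12.9), with all values below 1 FPKM. The posterior class made up 4.16% of the summed HOXB level in APLNR+, 4.96% in CD31+CD34+ cells and 16.8% in CD43+ cells, almost entirely through HOXB9. Over the same libraries the central class went from 38.5% to 26.9% and 25.0%, and the anterior class from 57.4% to 68.1% and 58.2%.

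**Figure D2:**
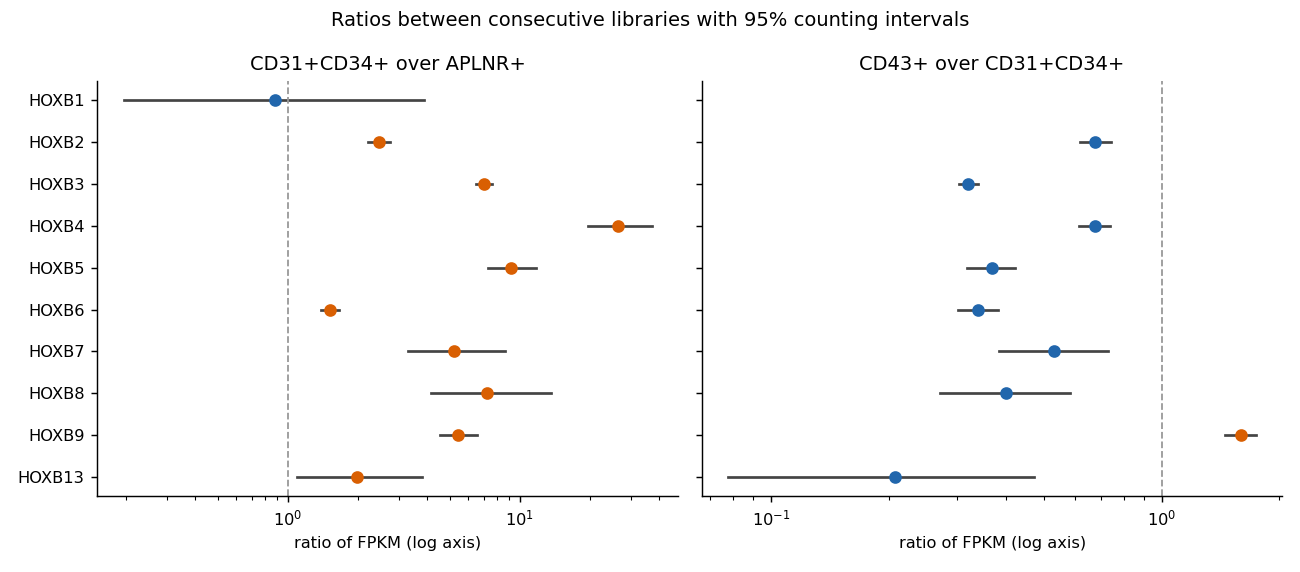
Points give the ratio of FPKM between consecutive libraries on a log axis, CD31+CD34+ over APLNR+ at left and CD43+ over CD31+CD34+ at right, with lines for the 95% counting interval. HOXB4 stands farthest to the right at the first of these steps (26.6-fold), and HOXB9 is the single member to the right of the dashed line of no change at the last (1.59-fold). HOXB1 is not drawn at the last step because it was listed at 0 in CD43+ cells.

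The order of levels did not follow the order of the genes along the chromosome. In APLNR+ cells the order was HOXB3, HOXB6, HOXB2, HOXB9, HOXB5, HOXB8, HOXB7, HOXB4, HOXB13 and HOXB1. The intervals of HOXB3 and HOXB6 overlapped, as did those of each neighbouring pair from HOXB9 to HOXB4 and of HOXB13 and HOXB1. In CD31+CD34+ cells it was HOXB3, HOXB2, HOXB6, HOXB5, HOXB4, HOXB9, HOXB8, HOXB7, HOXB13 and HOXB1, and the interval of HOXB4 alone overlapped with that of its next neighbour, HOXB9. In CD43+ cells HOXB9 had moved to the third place, behind HOXB3 and HOXB2 and ahead of HOXB6, HOXB4, HOXB5, HOXB8, HOXB7, HOXB13 and HOXB1. There the overlapping neighbours were HOXB6 with HOXB4, HOXB8 with HOXB7, and HOXB13 with HOXB1.

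**Figure D3:**
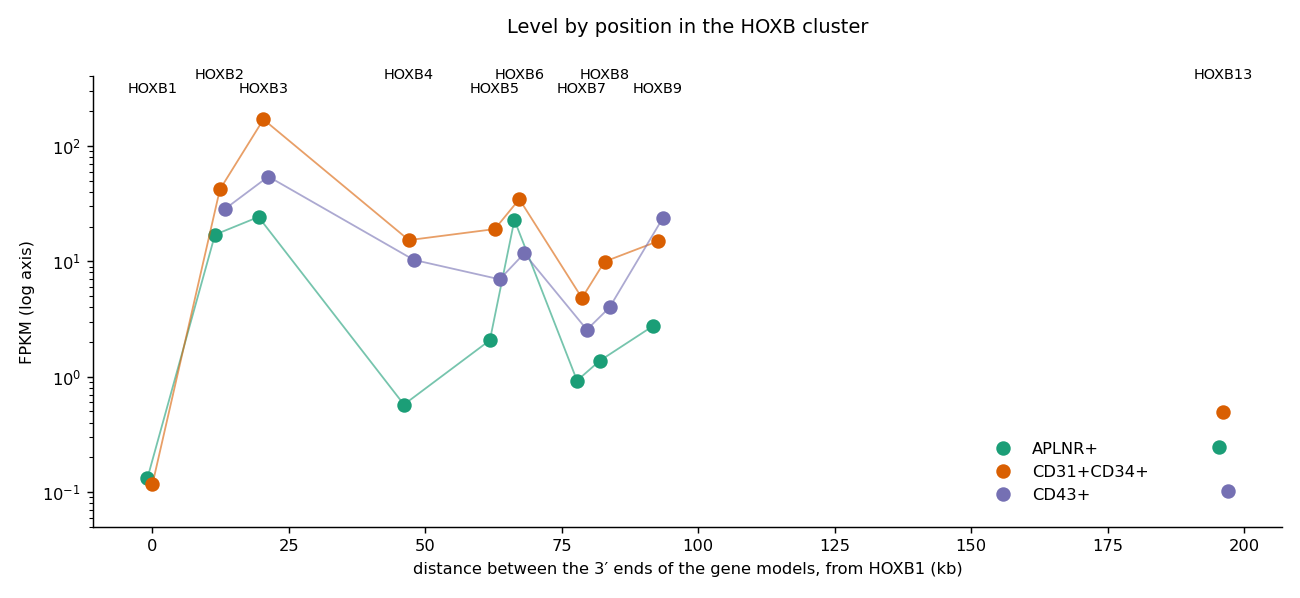
FPKM on a log axis is plotted against the distance in kb between the 3′ ends of the gene models, counted from HOXB1, for the 3 differentiated libraries, with points shifted slightly so that they can be told apart and lines joining neighbours up to HOXB9. In APLNR+ cells HOXB2, HOXB3 and HOXB6 stand above 15 FPKM with HOXB4 at 0.573 FPKM between them, and in CD31+CD34+ cells HOXB4 has come up to 15.3 FPKM. A value of 0 cannot be drawn, so HOXB1 has no point for CD43+.

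The genes overlap, which limits how finely their levels can be separated. Of the exonic bases of HOXB6, 16.6% are shared with HOXB3 on the same strand, and 16.3% with the antisense gene HOXB-AS3 on the other. For HOXB4, 17.1% of exonic bases are shared on the same strand with HOXB3, AC103702.1 or MIR10A. HOXB3 shares 7.94% of its exonic bases on the same strand, with HOXB4 and HOXB6, and 5.27% on the other, with HOXB-AS1 and HOXB-AS3. HOXB2 shares 3.72% with HOXB-AS1, HOXB5 shares 3.58% with HOXB-AS3, and HOXB1, HOXB7, HOXB8, HOXB9 and HOXB13 share none. Whether strand was used in counting is not given in the sources used here, so reads from a gene and its antisense partner cannot be told apart where they overlap. HOXB3 has 13 annotated transcripts, 10 of them coding and from 565 to 4208 bases long, which also makes its FPKM depend on the length assigned to it.

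The non-coding transcripts of the cluster were also listed at 0 in BC1 cells. HOXB-AS1 had 3.64 FPKM in APLNR+ cells, 5.50 in CD31+CD34+ cells and 1.44 in CD43+ cells. HOXB-AS3 had 0.298, 3.21 and 2.68 FPKM in the same order, and HOXB-AS2 had 0.0800, 1.65 and 0.825. HOXB-AS1 shares exonic bases with HOXB2 and HOXB3 on the other strand, so part of its value could not be told apart from theirs. HOXB-AS2 and HOXB-AS3 had about 1 fragment each in APLNR+ cells. HOXB-AS4 and the miRNA genes MIR10A and MIR196A1 were listed at 0 in every library, and mature miRNAs were not measured by this kind of library. PRAC1 and PRAC2, small genes beside HOXB13, had 3.01 and 1.93 FPKM in APLNR+ cells and 0.889 and 0.947 FPKM in CD43+ cells. Their values rest on at most 12 fragments. Of the 8 other cluster transcripts named in this paragraph, 5 passed the filter. From BC1 to APLNR+, 3 of them rose, where 9.15% of all genes tested rose. From APLNR+ to CD31+CD34+, 2 rose, where 13% of all genes tested rose. At the last step 1 fell, HOXB-AS1, where 13.5% of all genes tested fell.

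Of the 7 coding genes on either side of the cluster, 1 passed the threshold at each step, and nothing is read from these counts. From BC1 to APLNR+, 0 rose and 1 fell, where 9.32% of all genes tested fell. That gene was TTLL6, a tubulin-modifying enzyme, with 2.65 FPKM in BC1 cells, 0.0300 in APLNR+ cells, 0.0560 in CD31+CD34+ cells and 0 in CD43+ cells. SKAP1, an adaptor of T cell receptor signaling, was the 1 flanking gene that rose from APLNR+ to CD31+CD34+, where 13% of all genes tested rose. It had 0.242, 0.111, 5.56 and 4.17 FPKM in the 4 libraries. CALCOCO2, an autophagy receptor, was the 1 that fell at the last step, where 13.5% of all genes tested fell. Its values of 10.4, 17.7, 32.0 and 9.84 FPKM were, like the summed HOXB level, highest in CD31+CD34+ cells. UBE2Z, a ubiquitin-conjugating enzyme, stayed between 35.6 and 39.6 FPKM, and ATP5G1, CBX1 and SNX11 differed by less than 1 on the log2(FPKM + 1) scale at each single step.

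The other HOX clusters gave nearly no signal. None of the 29 HOXA, HOXC and HOXD genes reached 1 FPKM in any library, and 6 of them were listed at 0 in all 4. The summed level of HOXA was at most 0.847 FPKM, in APLNR+, that of HOXC at most 0.237 FPKM, in BC1, and that of HOXD at most 0.975 FPKM, in CD31+CD34+. The highest single value was 0.774 FPKM, of HOXD1 in CD31+CD34+ cells. HOXB genes accounted for 33.1% of the summed HOX level in BC1, 97.5% in APLNR+ cells, 99.5% in CD31+CD34+ cells and 99.7% in CD43+ cells. HOXA9 and HOXA10, known from definitive hematopoietic stem and progenitor cells, had 0.0835 and 0.0360 FPKM in CD43+ cells.

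**Figure D4:**
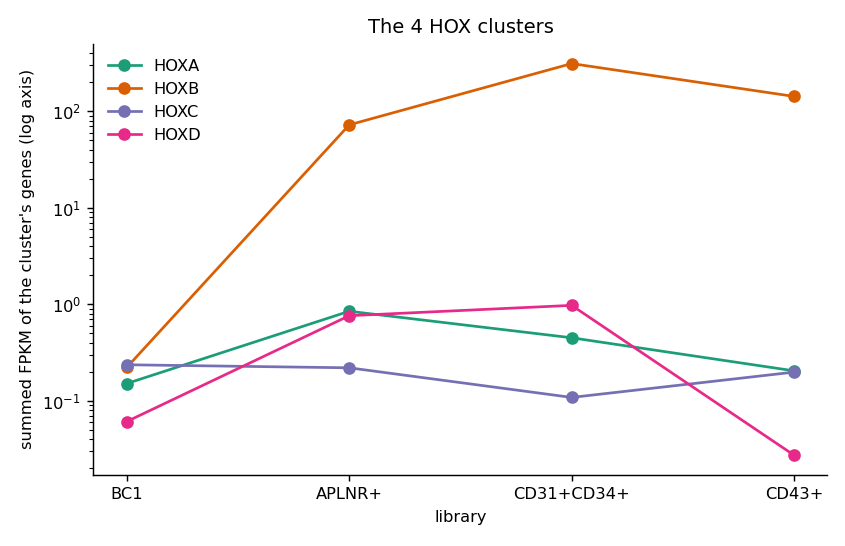
The summed FPKM of the genes of each HOX cluster is plotted on a log axis for the 4 libraries. HOXB leaves the other 3 clusters in APLNR+ cells (72.1 FPKM) and peaks in CD31+CD34+ cells (311 FPKM), and HOXA, HOXC and HOXD stay below 1 FPKM throughout.

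The DNA-binding partners of HOX proteins were in part present from the start, and 5 of the 8 PBX, MEIS and PKNOX genes described here reached 1 FPKM in BC1 cells. Of these 8 genes, 4 rose and 0 fell from BC1 to APLNR+, where 9.15% of all genes tested rose. In CD31+CD34+ against APLNR+ cells, 2 rose and 1 fell, where 13% of all genes tested rose and 11.4% fell. At the last step 1 rose, MEIS1, and 3 fell, where 7.63% of all genes tested rose and 13.5% fell. MEIS1, a cofactor of HOX proteins in hematopoietic stem and leukemic cells, had 0.268 FPKM in BC1 cells, 1.12 in APLNR+ cells, 25.6 in CD31+CD34+ cells and 85.6 in CD43+ cells. It rose 22.9-fold from APLNR+ to CD31+CD34+ (18.0 to 29.5), the same step at which HOXB4 rose, and 3.34-fold further in CD43+ cells (3.17 to 3.53), where the summed HOXB level was 2.19-fold lower. MEIS2 had 0.301, 1.91, 33.0 and 13.5 FPKM and fell 2.45-fold at the last step (2.23 to 2.69). PBX2 stayed between 42.7 and 103 FPKM. PBX3 and MEIS3, which rose from BC1 to APLNR+ cells and fell at the last step, ended at 6.40 and 9.39 FPKM, and PBX4 and PKNOX1 did not pass the threshold at any step. PKNOX2 was highest in APLNR+ cells, with 6.44 FPKM against at most 0.627 in the other libraries.

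**Figure D5:**
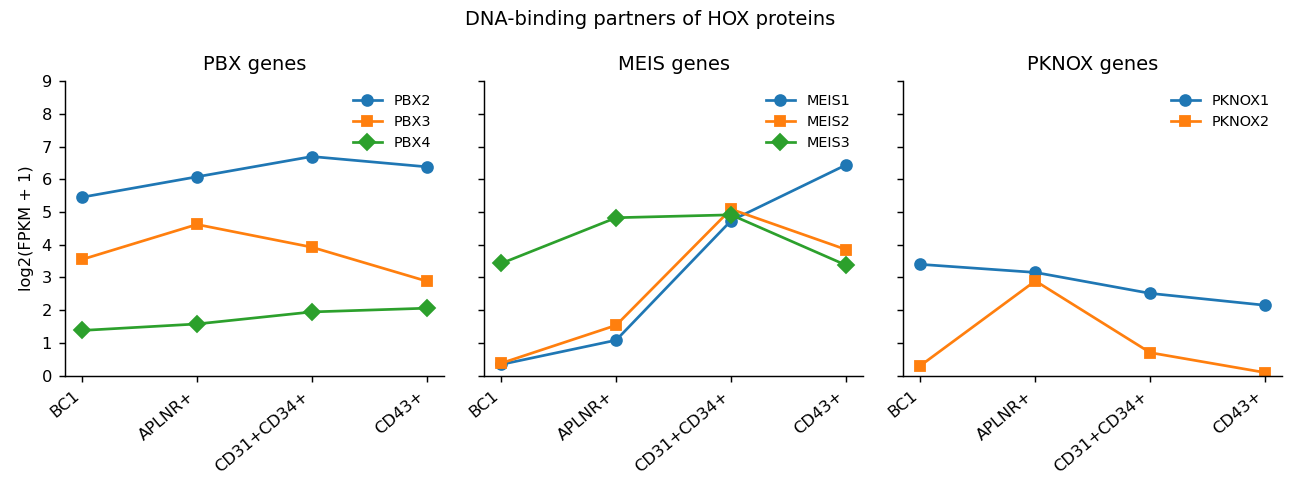
Levels of 8 PBX, MEIS and PKNOX genes are plotted as log2(FPKM + 1) for the 4 libraries, 1 line per gene. MEIS1 and MEIS2 start near the axis and come up together in CD31+CD34+ cells (25.6 and 33.0 FPKM), and MEIS1 is highest in CD43+ cells (85.6 FPKM).

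Among genes known to act on HOX clusters, 6 of 10 passed the filter. CYP26A1, the enzyme that breaks down retinoic acid, had 1.51 FPKM in BC1 cells, 286 in APLNR+ cells, 0.0830 in CD31+CD34+ cells and 0 in CD43+ cells, and was the 1 regulator that rose at the first step. RARG, a retinoic acid receptor, had 28.3, 31.3, 13.5 and 1.87 FPKM and fell at both later steps. RARA, another receptor, had 8.99, 15.7, 29.4 and 19.1 FPKM, its highest level falling in the same library as the summed HOXB level, though its change was under 1 on the log2(FPKM + 1) scale at each step. KMT2A, a histone methyltransferase that maintains HOX expression, lay between 7.84 and 17.4 FPKM. CDX1, CDX2 and CDX4, caudal-type factors that act upstream of HOX genes, did not exceed 0.768 FPKM in any library. EGR2 was the 1 regulator that rose at the last step, to 1.90 FPKM, where 7.63% of all genes tested rose.

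The 5 protein-coding genes outside the HOX clusters whose profile over the 4 libraries lay nearest to that of the summed HOXB level were GATA2, TGFB1, SP5, IFI16 and CDH11. Likeness was the Euclidean distance between centred log2(FPKM + 1) profiles, searched over 11033 genes with a median distance of 6.20. GATA2, a transcription factor of hemogenic endothelium and blood stem cells, was nearest at 1.22 and had 0.125, 32.0, 254 and 211 FPKM. TGFB1, at 1.78, had 4.59, 102, 357 and 585 FPKM and so was higher in CD43+ than in CD31+CD34+ cells, unlike the HOXB sum. SP5, at 1.81, had 0.258, 55.6, 61.4 and 58.9 FPKM, nearly level from APLNR+ cells on. IFI16, at 1.88, had 0.289, 12.8, 96.2 and 36.3 FPKM. CDH11, a cadherin, was the fifth at 2.18 and had 2.30, 59.1, 158 and 51.9 FPKM. With 4 points, such a distance is a description.

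Markers of other cells were examined because HOX genes are also active in stromal and neural cells. The 4 pluripotent markers had a summed level of 2463 FPKM in BC1 cells, 834 in the APLNR+ library, 2.46 in the CD31+CD34+ library and 0.245 in the CD43+ library, against the direction of the HOXB sum at the first 2 steps. In APLNR+ cells POU5F1 was still at 573 FPKM and TDGF1 at 260 FPKM, whereas NANOG and SOX2 were below 1 FPKM. The 6 stromal markers had a summed level of 33.5 FPKM in BC1 cells, 44.8 in APLNR+ cells, 205 in CD31+CD34+ cells and 35.7 in CD43+ cells, so they too were highest in CD31+CD34+ cells. Of the 6, 3 reached 1 FPKM in BC1, APLNR+ and CD43+ cells and 4 in CD31+CD34+ cells. Most of the sum was COL1A1, with 184 FPKM in CD31+CD34+ cells. COL3A1 had 0.309, 0.825, 8.94 and 4.87 FPKM in the order of differentiation, and so was also highest in CD31+CD34+ cells. PDGFRB had 5.67, 5.50, 6.69 and 2.56 FPKM, and PDGFRA had 1.37, 14.3, 4.96 and 0.151. LUM and DCN were at most 0.963 and 0.301 FPKM in any library, both in APLNR+ cells. Of the 5 neural markers, NES alone reached 1 FPKM, and it is also expressed in pluripotent and endothelial cells. The 5 endothelial markers summed to 701 FPKM in CD31+CD34+ cells and 85.8 in CD43+ cells, and the 5 erythroid and megakaryocytic markers to 85.8 and 6926 FPKM. The part of these cells in the levels of the HOXB genes was not tested.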

How the data were processed

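RNA-seq libraries were made with an Illumina TruSeq RNA kit from total RNA of 4 populations of BC1 cells, 1 library each. The authors deposited gene-level FPKM values. The submitters' processing notes name BWA, Bowtie, RSEM and hg19 without a role, and the program behind the values, its version and its use of strand are not given in the sources used here. The loci do not follow hg19: of 58274 identifiers, 58011 (99.5%) were found in GENCODE 29 (GRCh38), 55647 of them with the same version, and 55629 of these at the same position. Positions are therefore given on GRCh38, counted from 1. How the populations were isolated for sequencing is not given either.

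Rows of one identifier were summed (90 identifiers had several rows), and each HOXB gene had 1 row. Depth was read from the steps of low values of genes with 1 transcript of at least 1000 bases, where between 93.3% and 95.3% of values lay within 0.1 of a whole fragment. Approximate fragments of a gene used the median length over its coding transcripts, and ratios were given exact Clopper-Pearson 95% intervals. Change was computed on log2(FPKM + 1), with a filter of at least 1 FPKM in at least 1 library (17137 genes) and a threshold of 1. The reading of depth alone was tested on simulated data, of known depth. No test across populations was possible with 1 library each. Python 3.11.15, numpy 2.4.6, pandas 2.3.3 and scipy 1.17.1 were used. Homeobox sequences were read from GENCODE 29 coding sequences and the promoter from RefSeq; of the promoters of the 10 members, that of HOXB1 was matched.

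Named genes were the 10 members, other transcripts and flanking genes of the cluster, HOX paralogs over 10 FPKM, HOX partners and regulators, marker genes and the 5 nearest profiles among protein-coding genes of at least 5 FPKM. Some items are not reported here. HOXA9, HOXA10 and HOXD1 were named after their values were seen. The members and lists were chosen with earlier results of these data known. Alternatives were other pseudocounts, thresholds, scaling, row handling and transcript lengths.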

Additional observations from a re-analysis of the deposited data

How the results depend on the processing

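No paired analysis was possible because each population has 1 library, and for the same reason no library could be left out. Of the values recomputed under the settings tried, 83 stayed within the limits used and 26 moved, none of them to the other direction. The 83 include values that could not move, so this tally does not measure how stable the results are. Ratios not computed from the floor do not depend on transcript length. Row handling could not change the member counts, because no HOXB gene had several rows. With a pseudocount of 0.1, 10 members rose from BC1 to APLNR+, and with a threshold of 2 it was 3, while 0 fell at the last step under that threshold. The median changes at the 3 steps were 4.16, 2.33 and -1.21 with the pseudocount of 0.1, 1.76, 2.15 and -0.92 over the 8 members that passed the filter, 1.42, 1.80 and -0.54 with size factors, and 2.00, 1.68 and -0.73 as means. Without HOXB3, the highest member, the summed level was 47.9 FPKM in APLNR+ cells, 141 in CD31+CD34+ cells and 87.8 in CD43+ cells. With size factors it was 299.6 FPKM in CD31+CD34+ cells and 147 in CD43+ cells. At a minimum of 5 FPKM, 3 members were counted in APLNR+. Lower bounds against BC1 depend on the transcript length: at least 48.5-fold for HOXB3 with its shortest transcript, and at least 2.18-fold to 14.1-fold for HOXB8 with its shortest and longest. Folds from APLNR+ on do not use that floor, except for HOXB1. The intervals were computed at 1 length per gene, so their widths also depend on the transcript length. Depth limits HOXB1, HOXB13 and all BC1 values, and without replicates no difference can be set against variation between cultures.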

Other observations

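A pair of long non-coding RNA genes between HOXB9 and HOXB13, named after their values were seen, had their highest values in APLNR+ cells. AC103702.2 was listed at 0 in BC1 cells and had 4.72 FPKM in APLNR+ cells, 1.91 in CD31+CD34+ cells and 1.99 in CD43+ cells. LINC02086 was also listed at 0 in BC1 cells and had 1.495, 0.317 and 0.208 FPKM. LINC02086 was 4.72-fold lower in CD31+CD34+ than in APLNR+ cells (95% counting interval 1.64 to 17.5), and AC103702.2 was 2.47-fold lower with an interval of 0.983 to 6.99 that includes no change. In APLNR+ cells HOXB9 and HOXB13 on either side had 2.75 and 0.247 FPKM. The values of AC103702.2 and LINC02086 rest on at most 20 fragments in a library.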
